A study of Saccharomyces cerevisiae with 6 samples.

Results

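The genes described here are the seripauperin genes PAU1 to PAU24, the TIR genes TIR1 to TIR4, and DAN1 and DAN4, a family of Saccharomyces cerevisiae genes for mannoproteins of the cell wall. They were taken by name, and 20 of the 30 were listed among the 6277 genes of the deposited table, namely 14 of 24 PAU genes, all 4 TIR genes and both DAN genes. In yeast these genes are known for their induction when oxygen is scarce, when the wall proteins made in air give way to the TIR and DAN mannoproteins. In air, heme-dependent repressors, Rox1 among them, act with the corepressor Tup1-Cyc8 to keep them low, and the sterol-responsive activator Upc2 turns them on when heme and sterol run out. The TIR genes also respond to cold. The PAU genes make up the largest gene family of yeast, code for short serine-poor proteins, and lie mostly near the telomeres, where DNA is copied between chromosomes.

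RNA was sequenced from 3 strains in the BY4741/4743 background, all grown in selective medium at 30 °C to mid-log phase. Each strain carried chromosomal deletions of RRP6, the gene of the nuclear 3′ to 5′ exoribonuclease of the RNA exosome, and of MTR4, its partner helicase, and received MTR4 on the plasmids pRS416 and pRS415. A further plasmid, pRS413, held RRP6 (called WT), the exoribonuclease-inactive allele (Rrp6 exo-) or no insert (rrp6Δ), so the WT strain too expressed RRP6 from a plasmid. Each strain was represented by 2 individually picked clones, 6 libraries of ribosome-depleted total RNA in all. In the main test, p-values therefore rest on the spread between the 2 clones of a strain, pooled over the strains.

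The libraries held 34188755 to 39501874 reads on listed genes, recovered from the deposited scaled counts, which are reads divided by 1 size factor per library. RRP6 itself had 19503 and 21626 scaled counts in the WT pair, 18538 and 21173 in the Rrp6 exo- pair, and 4 and 9 reads in the rrp6Δ libraries, as the labels say. Fold changes are given on log2(scaled count + 1), a scale on which genes with few reads appear less changed than they are. They were tested with limma over all 6 libraries and all 6277 genes with Benjamini-Hochberg adjustment and a threshold of 0.05. Libraries with the same clone number deviated together in all strains, so the value from a limma fit with the clone number as a block, here called the blocked fit, is given beside a result where it changes the call. In bulk RNA, fewer cells with a transcript and less of it per cell cannot be told apart.

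The sequences of the PAU genes come first, because they limit how well these genes can be told apart with short reads. The median identity over the 276 pairs of PAU genes was 84.5%, and 3 pairs were identical from start to stop codon (PAU1 and PAU14, PAU6 and PAU18, PAU21 and PAU22). The first 60 bases of 7 PAU coding sequences are shown 5′ to 3′, with capitals at each base that differs from PAU1. They stand for an unlisted identical pair (PAU1, YJL223C, chrX:9079-9138, and PAU14, YIL176C, chrIX:9096-9155, both on the minus strand), a listed pair 98.9% identical (PAU12, YGR294W, chrVII:1080306-1080365, and PAU24, YBR301W, chrII:809057-809116, both on the plus strand), and 3 listed genes away from the telomeres (PAU5, YFL020C, chrVI:99540-99599, minus strand, PAU17, YLL025W, chrXII:94747-94806, plus strand, and PAU23, YLR037C, chrXII:223000-223059, minus strand). Sequences and positions are those of the RefSeq R64 assembly.
PAU1: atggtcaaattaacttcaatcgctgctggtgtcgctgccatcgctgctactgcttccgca
PAU14: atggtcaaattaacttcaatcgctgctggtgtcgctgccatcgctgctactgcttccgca
PAU12: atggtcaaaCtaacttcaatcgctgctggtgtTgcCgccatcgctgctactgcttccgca
PAU24: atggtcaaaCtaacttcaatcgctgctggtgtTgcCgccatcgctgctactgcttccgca
PAU5: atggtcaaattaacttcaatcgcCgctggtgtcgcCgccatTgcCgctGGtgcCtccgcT
PAU17: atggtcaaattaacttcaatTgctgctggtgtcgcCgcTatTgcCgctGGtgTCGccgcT
PAU23: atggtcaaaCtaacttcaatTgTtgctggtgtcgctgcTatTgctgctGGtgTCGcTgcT

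PAU14 matches PAU1 at every base, and PAU12 and PAU24 share the same 3 differences, whereas PAU5, PAU17 and PAU23 differ from PAU1 at 8, 11 and 12 of the 60 bases. None of the 11 windows of 50 bases, the length of a read, within the stretches of PAU1, PAU14, PAU12 and PAU24 occurs only once in the genome. All 11 are found once in PAU5, PAU17 and PAU23. The reads were sequenced in pairs, and these windows take no account of the second read of a pair.

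Over whole genes, the share of 50-base windows that occur once in the genome ran from 17.5% to 100% in the 14 listed PAU genes, with a median of 47.6%. In the 10 PAU genes that the table does not list, it ran from 0% to 24.5%, and 7 of them (PAU1, PAU6, PAU9, PAU14, PAU18, PAU21 and PAU22) had no such window. The other 3 were PAU10, PAU13 and PAU16. The ranges of the listed and the unlisted genes thus met only between 17.5% and 24.5%, where PAU12 is listed and PAU13 and PAU16 are not. All 10 unlisted genes and 9 of the 14 listed ones lie within 25 kb of a chromosome end, and no TIR or DAN gene does. The unlisted genes have no value here, which is not a level of 0. The lowest summed scaled count of a listed gene was 14.4. Whether shared sequence or a count minimum left the 10 genes out was not tested. How reads that match several genes were counted is not given in the sources used here, so a value of a PAU gene near an end may hold reads from a copy or lack reads of its own. The TIR genes, with 79.8% to 100% of windows found once, and the DAN genes, with 80.1% to 100%, carry little of this doubt. No member overlaps another annotated gene.

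**Figure D1:**
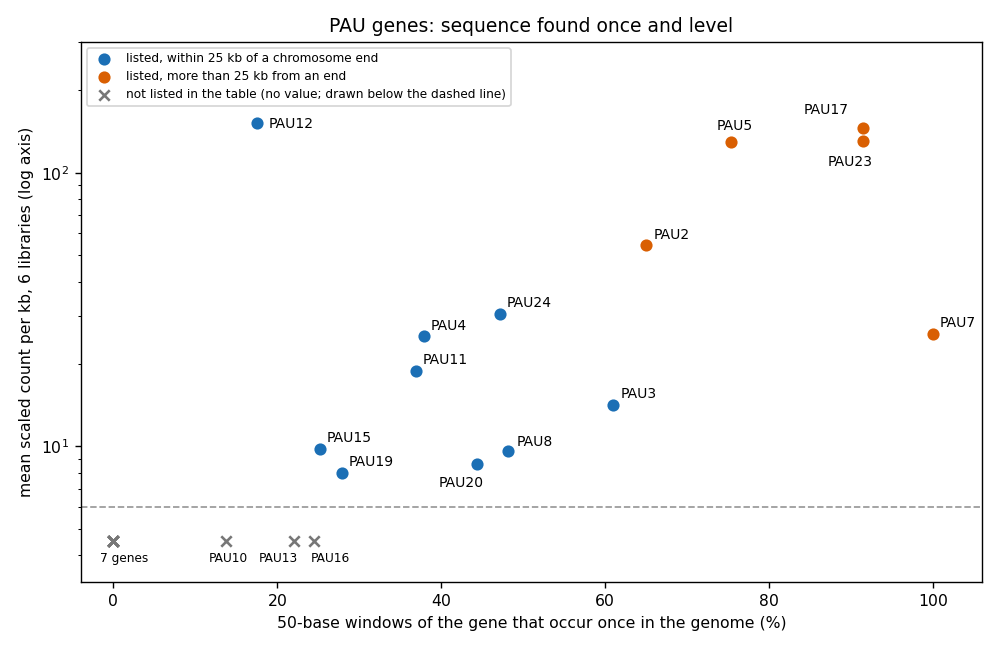
Mean scaled count per kb of coding sequence over 6 libraries (log axis) of the 14 listed PAU genes against the percentage of their 50-base windows that occur once in the genome, with the 10 unlisted PAU genes as crosses under the dashed line, where they have no level. The listed genes within 25 kb of a chromosome end (blue) lie between 8.0 and 30.4 per kb except PAU12 at 152.3, and the 5 genes farther in (orange) between 25.8 and 145.5.

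The listed PAU genes were near the bottom of the range of these libraries. Their counts came to between 1 and 74 reads per gene and library, and 8 of the 14 averaged under 10 scaled counts. Per kb of coding sequence they had 8.0 to 152.3 scaled counts, where the median of all protein-coding genes was 1574 and only 0.384% to 7.26% of those genes lay below. Within the family, 4 genes stood above the rest at 47.9 to 55.3 scaled counts. These were PAU5 (47.9), PAU12 (55.3), PAU17 (54.6) and PAU23 (48.9), and the next highest was PAU2 (YEL049W) with 19.7. PAU5, PAU17 and PAU23 are 99.2, 94.8 and 222.7 kb from the nearest chromosome end.

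Position and sequence went together with level. The 5 listed genes more than 25 kb from an end (PAU2, PAU5, PAU7, PAU17 and PAU23) had a median of 130.0 scaled counts per kb (range 25.8 to 145.5), and the 9 near an end a median of 14.2 (range 8.0 to 152.3). The genes near an end also hold less sequence found once. With the whole count of a gene divided by its number of windows found once, the medians were 164.0 and 44.8 per kb of such windows. The ranges were 36.5 to 198.6 and 22.4 to 1005.1, the highest being PAU12. The order of the medians held while the gap narrowed, but reads were not counted in those windows alone. PAU12 and PAU7 went against this order. PAU12, 10.3 kb from the right end of chromosome VII, had the highest level of the family although only 17.5% of its windows occur once. Its near-copy PAU24, 98.9% identical, had 30.4 per kb. PAU7, 53.2 kb from an end and with 100% of its windows found once, had only 25.8 per kb. Divided by its windows, which are fewer than its bases, this was 36.5. Across the 14 genes the level followed the share of windows found once weakly (Spearman rho 0.38, Pearson r 0.46), a description only, since the genes share libraries and sequence.

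No PAU gene passed the test between strains in any of the fits. DESeq2 gave no adjusted p against WT for PAU7, PAU8, PAU15, PAU19 and PAU20. The fit with a minimum mean of 10 left out 8 PAU genes, so these were not tested there. The summed scaled count of the 14 genes was 261.3 and 273.5 in the WT libraries, 270.1 and 334.5 in the Rrp6 exo- pair, and 263.6 and 254.7 in the rrp6Δ pair. The WT and rrp6Δ sums overlapped, and in Rrp6 exo- 1 library lay within the WT range and 1 above. The lowest adjusted p of a PAU gene in limma was 0.563 for rrp6Δ against WT and 0.343 for Rrp6 exo- against WT, and with the block 0.346 and 0.168. PAU12 had 49.1 and 40.6 scaled counts in the WT pair, 60.2 and 76.9 in the Rrp6 exo- pair and 60.4 and 44.4 in the rrp6Δ pair. Both Rrp6 exo- libraries were above both WT libraries by 0.60 on the log2 scale (limma standard error 0.28 and adjusted p = 0.343), while rrp6Δ overlapped WT. PAU17 had 62.9 and 43.7 in the WT pair, 55.4 and 70.6 in the Rrp6 exo- pair and 54.2 and 40.7 in the rrp6Δ pair, and its groups overlapped WT in both mutants. The other 12 PAU genes had log2 fold changes from -0.30 to 0.90 in Rrp6 exo- and from -0.36 to 0.77 in rrp6Δ. At the upper extreme stood PAU8 (YAL068C), with 3 and 1 reads in the WT pair, 6 and 3 in the Rrp6 exo- pair and 5 and 3 in the rrp6Δ pair. The standard errors of these genes in limma were 0.27 to 0.70 on the log2 scale, and differences of the size seen in PAU12 or PAU8 were not told from the spread between libraries.

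The 4 TIR genes were each more abundant than any listed PAU gene and did not move together. TIR4 was higher in both mutants than in WT, TIR1 and TIR3 were lower, and TIR2 lay on either side. None passed limma without the block. In the blocked fit TIR4 rose in both mutants, TIR3 fell in both, and TIR1 fell in rrp6Δ.

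TIR4 (YOR009W, chrXV:344335-345798, plus strand), one of the TIR mannoproteins known to be needed for growth without oxygen, had 742 and 700 scaled counts in the WT libraries. It had 1334 and 1340 in the Rrp6 exo- pair and 1095 and 974 in the rrp6Δ pair. Every mutant library was above both WT libraries, with Rrp6 exo- the highest. In log2 terms it was 0.89 higher in Rrp6 exo- (standard error 0.11 and adjusted p = 0.0579 in limma, and 0.0027 in the blocked fit) and 0.52 in rrp6Δ (standard error 0.11, adjusted p = 0.147, and 0.0195 blocked), or 1.85-fold and 1.43-fold. TIR4 lies 15301 bases from the chromosomal RRP6 locus, which is deleted in all 3 strains.

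TIR3 (YIL011W, chrIX:333727-334536, plus strand), also known as required for anaerobic growth, had 561 and 572 scaled counts in the WT pair, 357 and 364 in the Rrp6 exo- pair and 369 and 402 in the rrp6Δ pair. All 4 mutant libraries lay below both WT libraries, and the mutants lay close to each other. Its log2 fold change came to -0.65 in Rrp6 exo- (error 0.13, limma adjusted p = 0.126, blocked 0.0147) and -0.56 in rrp6Δ (standard error 0.13, adjusted p = 0.155, blocked 0.0259).

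TIR1 (YER011W, chrV:175248-176012, plus strand), a cold-shock mannoprotein, had 471 and 423 scaled counts in the WT pair, 257 and 332 in the Rrp6 exo- pair and 249 and 225 in the rrp6Δ pair. Both mutants lay below WT without overlap, and the Rrp6 exo- libraries were farther apart than those of rrp6Δ. Against WT its log2 fold change was -0.91 in rrp6Δ (standard error 0.18, limma adjusted p = 0.138, blocked 0.02). In Rrp6 exo- it was -0.61 (adjusted p = 0.202), and in the blocked fit it stayed just outside the threshold (adjusted p = 0.05001).

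TIR2 (YOR010C, chrXV:346195-346950, minus strand), 72.8% identical in coding sequence to TIR1 and likewise induced by cold, had 406 and 393 scaled counts in WT. It had 412 and 453 in the Rrp6 exo- pair and 374 and 277 in the rrp6Δ pair. Rrp6 exo- was above WT and rrp6Δ below it, by log2 fold changes of 0.11 and -0.31 (limma adjusted p = 0.814 and 0.459, blocked 0.652 and 0.215). Its closest relative TIR1 thus lay below WT in Rrp6 exo- and TIR2 above it, though the 2 genes were not tested against each other.

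With TIR4 higher and TIR1 and TIR3 lower, the order of the family by scaled count per kb of coding sequence changed. In both WT libraries TIR3 was the most abundant per kb (692.4 and 706.0 scaled counts per kb) and TIR4 the least (506.6 and 478.0). In all 4 mutant libraries TIR4 was the most abundant (911.0 and 915.3 in Rrp6 exo-, 748.1 and 665.4 in rrp6Δ) and TIR1 the least (336.5 and 434.5, then 325.6 and 294.1). This order holds for division by whole coding length only. The share of windows found once was 79.8% in TIR4, 87.0% in TIR1 and 100% in TIR2 and TIR3. Divided by those windows, the order within a library may differ, in WT above all. TIR4 made up 34.0% and 33.5% of the scaled counts of the 4 genes in the WT pair, 56.5% and 53.8% in the Rrp6 exo- pair, and 52.5% and 51.9% in the rrp6Δ pair. The groups did not overlap, but 2 libraries against 2 cannot give an exact permutation p (two-sided) below 0.333, the value found, and this share was chosen after the values were seen. The summed level of the family moved far less than its makeup, from 2180 and 2088 scaled counts in WT to 2360 and 2489 in the Rrp6 exo- pair and 2087 and 1878 in the rrp6Δ pair.

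**Figure D2:**
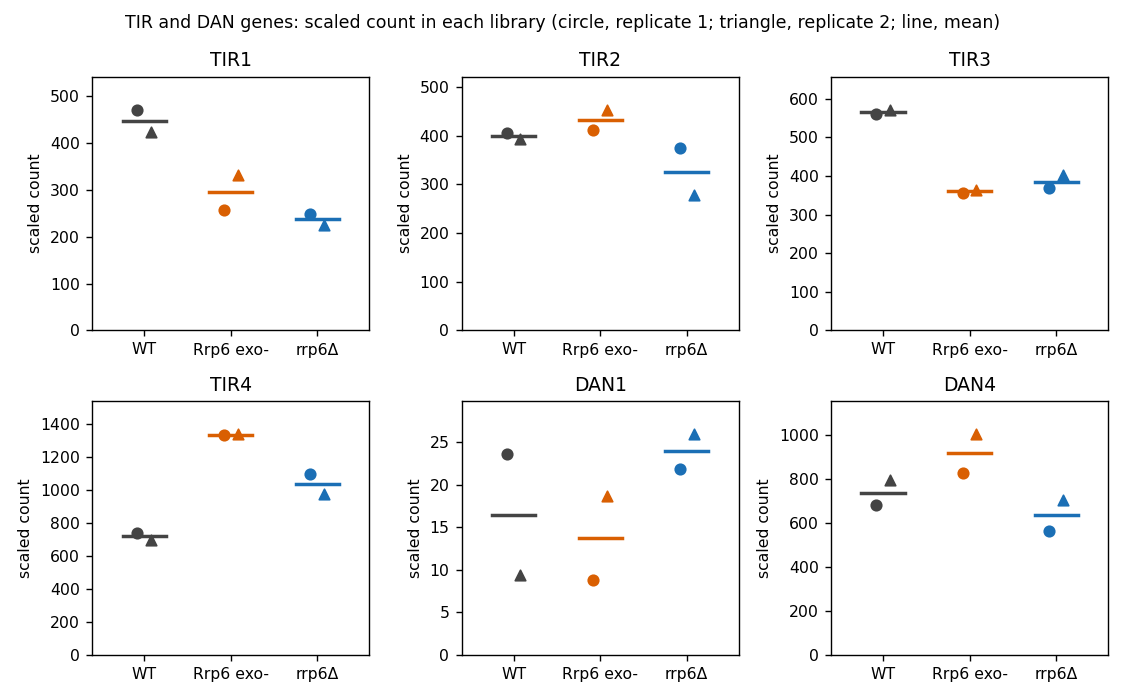
Scaled count of the 4 TIR genes, DAN1 and DAN4 in each of the 6 libraries, by strain (circle, replicate 1, triangle, replicate 2, line, mean), each on its own axis from 0. TIR4 is higher in the 4 mutant libraries (974 to 1340) than in WT (700 and 742), TIR1 and TIR3 are lower, and DAN1 stays at or under 25.9 in every library.

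The DAN genes did not pass the test in any fit. DAN4 (YJR151C, chrX:712255-715740, minus strand), the longest member, had 680 and 795 scaled counts in the WT pair, 828 and 1003 in the Rrp6 exo- pair and 564 and 705 in the rrp6Δ pair. Rrp6 exo- was above WT in both libraries by 0.31 in log2 terms (limma standard error 0.18 and adjusted p = 0.441, blocked 0.0681), and rrp6Δ overlapped WT (-0.22, adjusted p = 0.589, blocked 0.154). DAN1 (YJR150C, chrX:708811-709707, minus strand), whose promoter is a standard reporter of the anaerobic response, was nearly silent, with 24 and 9 reads in the WT pair, 9 and 18 in the Rrp6 exo- pair and 21 and 28 in the rrp6Δ pair. Its libraries overlapped between each mutant and WT, and its log2 fold changes were -0.20 in Rrp6 exo- and 0.64 in rrp6Δ with a standard error of 0.55 each. Per kb, DAN1 had 20.1 scaled counts, a level like that of the PAU genes near the chromosome ends, and DAN4 had 218.7.

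Over all 20 listed members, limma called none in any comparison, where it called 0.175% of all 6277 genes for rrp6Δ against WT, 0.112% for Rrp6 exo- against WT and 0.0159% for rrp6Δ against Rrp6 exo-. At an unadjusted p under 0.05 it gave 3, 3 and 2 members, against 16.6%, 17.0% and 5.46% of all genes. edgeR without the block also called 0, 0 and 0. The blocked limma fit called 3 members for rrp6Δ against WT (1 higher, TIR4, and 2 lower, TIR1 and TIR3), with 11.5% of all genes called, 5.43% higher and 6.04% lower. It called 2 for Rrp6 exo- against WT (TIR4 higher, TIR3 lower), with 12.7% of all genes called, 5.7% higher and 7.04% lower, and 0 between the mutants, with 0.0319% called. DESeq2 and edgeR with the block called the same members as the blocked limma fit in each comparison. Of all genes, DESeq2 called 8.19%, 8.45% and 0.717% in the same order, and edgeR with the block 11.4%, 12.7% and 0.0319%. Read against these shares of all genes, 3 of 20 and 2 of 20 are near the background, and all of the calls were TIR genes.

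The libraries of rrp6Δ and WT did not overlap in 6 of the 20 members (2 higher, 4 lower), against 50.0% of all genes. Those of Rrp6 exo- and WT did not overlap in 9 (7 higher, 2 lower), against 45.2%, and those of the 2 mutants in 8 (2 higher, 6 lower), against 33.2%. The median log2 fold change of the members was 0.01 in rrp6Δ and 0.20 in Rrp6 exo- against WT, where the median of all genes was 0.01 in both. Rescaling the libraries to the same total moved the median of all genes to 0.16 and 0.12 and every value with it, so that values within that distance of 0 can change sign, while TIR1 to TIR4 and DAN4 kept theirs. Both comparisons use the same WT libraries. The 250 other listed genes within 25 kb of a chromosome end had medians of 0.06 and 0.04, and the blocked fit called 29 and 43 of them, against 11.5% and 12.7% of all genes. The genes near the ends thus had medians close to that of all genes. The 4 genes of telomere silencing (SIR2, SIR3, SIR4 and RAP1) had 0 calls with and without the block.

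**Figure D3:**
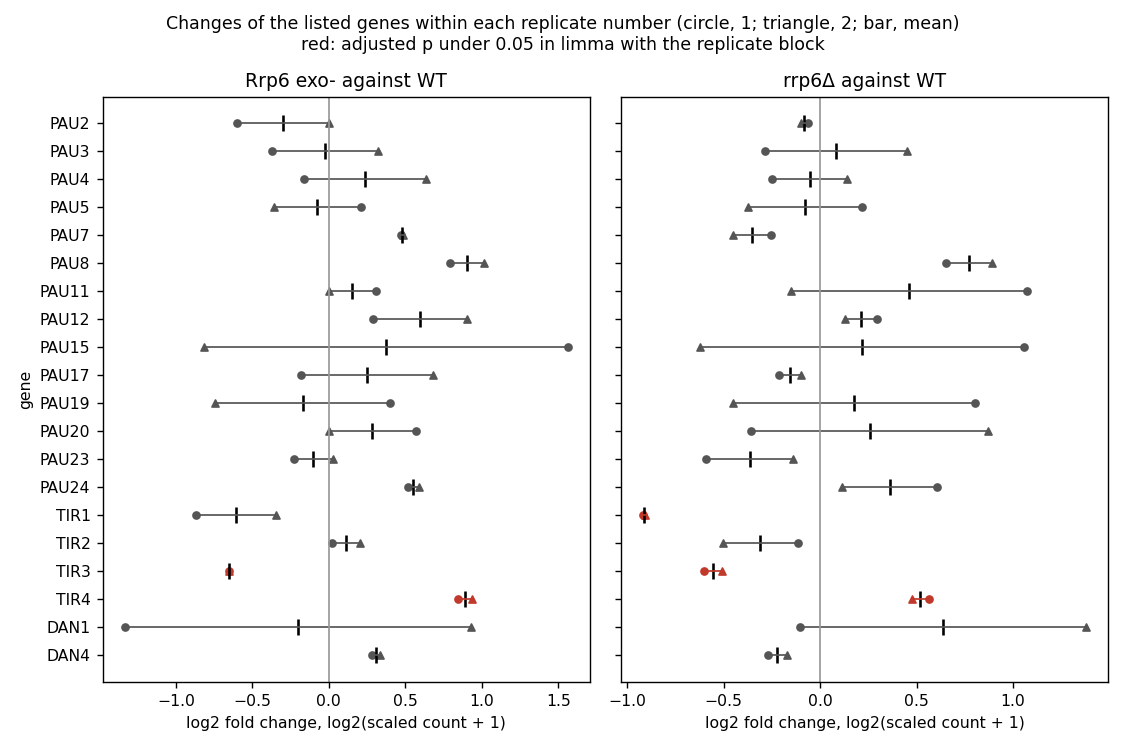
Log2 fold change of each listed gene against WT in Rrp6 exo- and rrp6Δ, within replicate number 1 (circle) and 2 (triangle). The bar is the mean. Red marks genes with an adjusted p under 0.05 in limma with the block, which are TIR3 and TIR4 in Rrp6 exo- and TIR1, TIR3 and TIR4 in rrp6Δ, and for several PAU genes with few reads the circle and the triangle lie on opposite sides of 0.

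Between the 2 mutants no member passed, with a lowest adjusted p of 0.876 in limma and 0.106 in the blocked fit. That lowest blocked value belonged to DAN4, lower in rrp6Δ than in Rrp6 exo- by a log2 fold change of -0.53. TIR4 was also lower in rrp6Δ (log2 fold change -0.37, limma adjusted p = 0.876, blocked 0.16), and the libraries did not overlap. TIR1 and TIR3 differed by -0.30 and 0.10. Over the 20 members the median was -0.17, against 0.00 over all genes.

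The stretches before the TIR3, TIR4, DAN1 and DAN4 start codons are shown. TIR3 and TIR4 differed in direction in the blocked fit although both belong to the anaerobic family. DAN1 and DAN4, which passed in no fit, are set beside them. Capitals mark matches to 2 letter strings. TCGTATA is the core of the sterol response element bound by Upc2, and TCGTTCAG or TCGTTTAG is the AR1 element named in DAN and TIR promoters. The stretches run from base -450 to base -151 before the start codon for TIR3 (chrIX:333277-333576, plus strand) and from base -300 to base -1 for TIR4 (chrXV:344035-344334, plus strand), DAN1 (chrX:709708-710007, minus strand) and DAN4 (chrX:715741-716040, minus strand), each 5′ to 3′ on the strand of its gene in RefSeq R64.
TIR3: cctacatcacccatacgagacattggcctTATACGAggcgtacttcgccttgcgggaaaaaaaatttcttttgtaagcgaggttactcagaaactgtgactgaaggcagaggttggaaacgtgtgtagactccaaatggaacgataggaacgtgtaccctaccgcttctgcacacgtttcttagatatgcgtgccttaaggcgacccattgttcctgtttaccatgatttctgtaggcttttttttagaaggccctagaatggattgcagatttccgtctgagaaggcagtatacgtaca
TIR4: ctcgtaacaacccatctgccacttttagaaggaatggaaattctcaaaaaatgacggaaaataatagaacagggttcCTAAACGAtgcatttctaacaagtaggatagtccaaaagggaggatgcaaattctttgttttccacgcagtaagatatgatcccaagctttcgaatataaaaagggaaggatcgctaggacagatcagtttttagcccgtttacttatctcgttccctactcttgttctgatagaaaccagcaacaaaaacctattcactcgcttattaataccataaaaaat
DAN1: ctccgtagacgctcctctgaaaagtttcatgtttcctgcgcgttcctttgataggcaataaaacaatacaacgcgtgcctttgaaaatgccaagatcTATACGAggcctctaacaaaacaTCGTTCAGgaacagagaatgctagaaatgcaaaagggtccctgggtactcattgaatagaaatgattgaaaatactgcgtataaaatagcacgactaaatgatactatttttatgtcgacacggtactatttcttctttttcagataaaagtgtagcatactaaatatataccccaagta
DAN4: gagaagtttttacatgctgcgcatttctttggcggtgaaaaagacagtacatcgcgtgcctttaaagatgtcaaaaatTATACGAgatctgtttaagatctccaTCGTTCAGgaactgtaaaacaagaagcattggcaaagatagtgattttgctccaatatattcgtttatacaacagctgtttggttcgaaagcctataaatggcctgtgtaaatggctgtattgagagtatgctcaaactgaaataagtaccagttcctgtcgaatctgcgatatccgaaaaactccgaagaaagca

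DAN1 and DAN4 each held a sterol response core on the reverse strand (first base at -203 and -222) followed by TCGTTCAG (at -180 and -196). DAN1 also held TCGTTTAG at -412, outside the stretch shown. TIR3 held the reverse complement of TCGTATA alone, at -421, and TIR4 the reverse complement of TCGTTTAG alone, at -223. In the 500 bases before the start codon, on both strands, TCGTATA was found in 9 of 24 PAU genes, 1 of 4 TIR genes and both DAN genes, and in 6.98% of 6019 such stretches over the genome. The AR1 strings were found in 18 of 24 PAU genes, 1 of 4 TIR genes and both DAN genes, and in 3.17% of all stretches. The string ATTGTT, the core bound by the repressor Rox1, was found in 16, 4 and 2 of them, but also in 48.9% of all. The 2 strings in capitals begin with the same letters and did not overlap in the stretches shown. The identical and near-identical PAU genes share flanking sequence, so their matches are not independent. TIR1 and TIR2 held neither of the strings in capitals in these 500 bases. TIR1 and TIR3, which were both lower in the mutants, thus shared no match to them, and a match or its absence says nothing of binding.

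2 of the TIR genes share an upstream region with a sterol transporter gene of the anaerobic response, and these neighbours were measured as well. PDR11 (YIL013C) and AUS1 (YOR011W) code for the membrane transporters that take up sterol when the cell cannot make it. PDR11 is transcribed away from TIR3, and its level was 702 and 765 scaled counts in the WT pair, 260.3 and 345 in the Rrp6 exo- pair and 252 and 308 in the rrp6Δ pair. The mutant libraries were all below WT, by log2 fold changes of -1.29 and -1.39 (limma adjusted p = 0.0738 and 0.1, blocked 0.00207 and 0.00255). Between the 2 genes, 374 bases before TIR3 and on its strand, lies YIL012W, a short reading frame of unknown role, with 20 and 10 reads in the WT pair, 50 and 38 in the Rrp6 exo- pair and 44 and 58 in the rrp6Δ pair. Here all mutant libraries were above WT, by log2 fold changes of 1.55 and 1.72 (standard error 0.36, limma adjusted p = 0.147 and 0.145, blocked 0.0273 and 0.0229). DESeq2 called YIL012W in rrp6Δ (adjusted p = 0.0293) and not in Rrp6 exo- (adjusted p = 0.0609). The strand setting of the counting is not given, so the strand of these few reads is not known. TIR3 and PDR11 were thus lower in the mutants on both sides of a stretch in which more reads were counted. Whether these changes are linked was not tested. DOT5 (YIL010W), 345 bases past the end of TIR3, had log2 fold changes of -0.25 and -0.24 (Rrp6 exo- and rrp6Δ) and did not pass.

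TIR4 and TIR2 face each other on chromosome XV with 396 bases between their ends, and AUS1 is transcribed away from TIR2 with 2728 bases between them. Along this row TIR4 was higher in Rrp6 exo- by 0.89, TIR2 by 0.11, and AUS1 was lower by a log2 fold change of -1.09 (limma adjusted p = 0.145, blocked 0.013). AUS1 had 4634 and 5121 scaled counts in the WT pair, 1733 and 3018 in the Rrp6 exo- pair and 3293 and 3186 in the rrp6Δ pair. In rrp6Δ its log2 fold change was -0.59 and did not pass (limma adjusted p = 0.315, blocked 0.0685). On the other side of TIR4, YOR008C-A, 1253 bases away and transcribed away from it, had 0 to 9 reads in each library. TIR1 has no listed member beside it, and its neighbours YER010C and PRE1 (YER012W) had log2 fold changes of -0.25 and -0.04 in rrp6Δ, where TIR1 was called, and of -0.20 and -0.31 in Rrp6 exo-. Of these only PRE1, a proteasome subunit gene, passed in the blocked fit, in Rrp6 exo- (adjusted p = 0.0285, and 0.24 in limma without it).

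**Figure D4:**
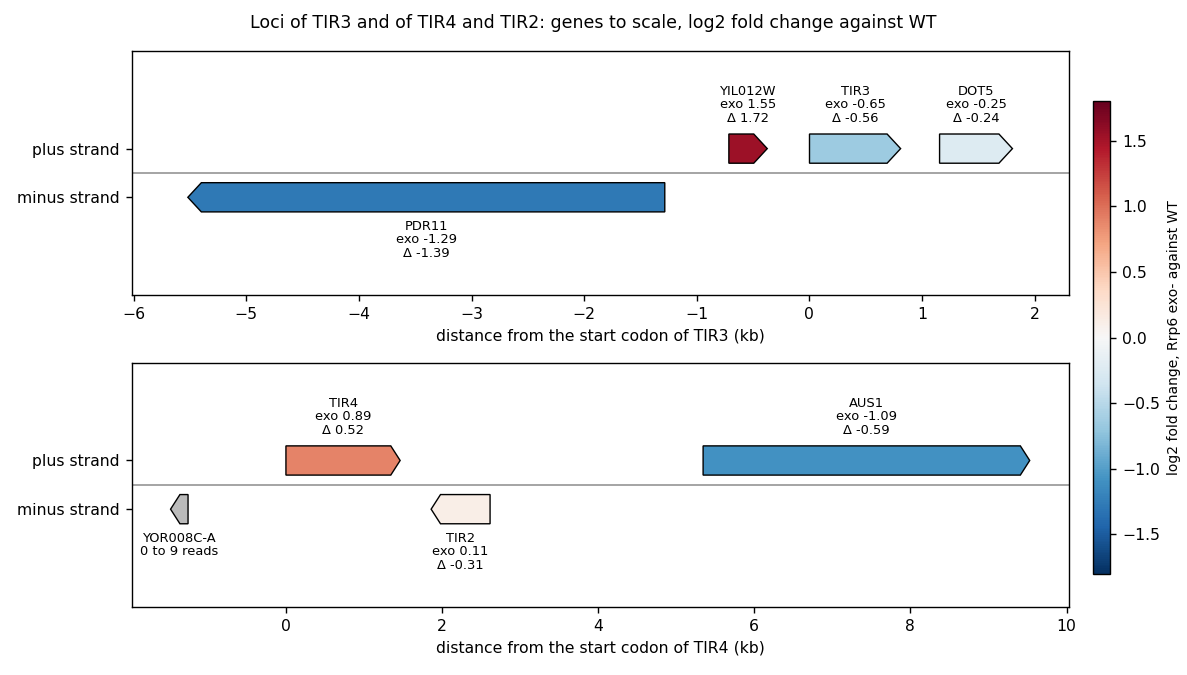
The genes around TIR3 (upper) and around TIR4 and TIR2 (lower), drawn to scale in kb from the start codon of TIR3 or TIR4, by strand, with arrows along transcription. Colours give the log2 fold change of Rrp6 exo- against WT, labels give it for Rrp6 exo- and rrp6Δ, and YOR008C-A is grey because it had 0 to 9 reads: YIL012W at 1.55 lies between PDR11 at -1.29 and TIR3 at -0.65.

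Genes that govern or accompany the anaerobic response were read from lists of names. Of 10 regulators, limma called none, and the blocked fit called 0 in rrp6Δ and 4 in Rrp6 exo-, all higher, where 5.7% of all genes were called higher. DESeq2 called 1 in each mutant, TUP1 in rrp6Δ and ROX1 in Rrp6 exo-. The 4 of the blocked fit were ROX1, the heme-dependent repressor, UPC2 and SUT1, activators of sterol uptake genes, and MGA2, an activator of the fatty acid desaturase gene OLE1, with log2 fold changes of 0.30, 0.34, 0.36 and 0.28 (blocked adjusted p = 0.0409, 0.0351, 0.0218 and 0.0319). In rrp6Δ, UPC2, SUT1 and MGA2 had log2 fold changes of 0.27, 0.26 and 0.24, just outside the threshold (blocked adjusted p = 0.0658, 0.0556 and 0.0535). That of ROX1 was 0.07 (blocked adjusted p = 0.579). None of the 4 passed limma between the mutants, with or without the block. ROX1 had 6919 and 6813 scaled counts in the WT pair, 8056 and 8914 in the Rrp6 exo- pair and 7386 and 7015 in the rrp6Δ pair. The median of the list was 0.23 in Rrp6 exo- and 0.02 in rrp6Δ. In Rrp6 exo- the repressor ROX1 and the activator UPC2 therefore stood higher at once. SUT1 differed far more between replicate numbers (1730 and 3929 scaled counts in WT) than between strains. The genes of the corepressor (TUP1, CYC8) had log2 fold changes of -0.02 and 0.05 in Rrp6 exo- and of -0.26 and -0.21 in rrp6Δ, where both were below WT without overlap. Neither passed limma with or without the block, and DESeq2 called TUP1 in rrp6Δ (adjusted p = 0.0347).

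Of 12 other genes known to be induced without oxygen, limma called none, and the blocked fit called 2 in rrp6Δ (1 higher, 1 lower) and 4 in Rrp6 exo- (1 higher, 3 lower), against 11.5% and 12.7% of all genes. HES1, an oxysterol-binding protein gene, rose from 315 and 262 scaled counts in WT to 542 and 579.6 in the Rrp6 exo- pair and 556 and 504 in the rrp6Δ pair (log2 fold changes 0.96 and 0.88, blocked adjusted p = 0.00656 and 0.0105, limma 0.0839 and 0.119). PDR11 fell in both mutants, and AUS1 and HMG2, an isozyme of the HMG-CoA reductase of sterol synthesis, fell in Rrp6 exo- (HMG2 by a log2 fold change of -0.39, blocked adjusted p = 0.0316, limma 0.256). The most abundant members of the list that did not pass were OLE1, ERG11 and HEM13, with log2 fold changes of 0.05, -0.16 and -0.33 (Rrp6 exo-) and 0.16, -0.21 and -0.31 (rrp6Δ). ANB1, the anaerobic form of the translation factor eIF5A, had 189 and 177 scaled counts in the WT pair, 117 and 162 in the Rrp6 exo- pair and 141 and 154 in the rrp6Δ pair and did not pass. The list thus held genes that moved both ways, as the TIR genes did.

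A last list held 10 mannoproteins of the wall made in air, the counterparts of the TIR and DAN proteins. All 10 had negative log2 fold changes in rrp6Δ against WT, with a median of -0.45 (from -0.62 to -0.10, and a median of -0.30 after rescaling), and 7 did not overlap WT, against 50.0% of all genes. The blocked fit called 4 of them, all lower, where 6.04% of all genes were called lower. They were CWP2, CIS3, CCW14 and TIP1 (log2 fold changes -0.48, -0.50, -0.41 and -0.61, blocked adjusted p = 0.0208, 0.0205, 0.0303 and 0.0338), and limma without the block called none. DESeq2 called 6, these 4 with SED1 and CCW12. CWP2, a major mannoprotein of the wall, had 55984 and 51495 scaled counts in the WT pair, 52261 and 51769 in the Rrp6 exo- pair and 39058 and 37902 in the rrp6Δ pair. In Rrp6 exo- the median was -0.05 (0.06 after rescaling) and the blocked fit called 0, as did DESeq2. The difference between the mutants was not called in limma (lowest adjusted p = 0.876, blocked 0.12), but DESeq2 called SED1 (adjusted p = 1.16e-07) and CWP2 (adjusted p = 0.000106), both lower in rrp6Δ. SED1, CCW12 and HSP150, the most abundant of the list, had log2 fold changes of -0.46, -0.32 and -0.45 in rrp6Δ and did not pass limma with or without the block, while DESeq2 called SED1 and CCW12 (adjusted p = 0.00019 and 0.0347). TIP1, a cold-shock mannoprotein related to TIR1 and made in air, was thus lower in rrp6Δ together with TIR1.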

How the data were processed

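Ribosome-depleted total RNA of 6 libraries (3 strains, 2 clones each) was sequenced by the authors as paired 50-base reads, aligned in 2 passes with STAR to sacCer3, processed with Picard (version 1.124) and counted per gene with HTSeq (version 0.5.3) on the R64 annotation. The deposited signal is the read count of a gene divided by 1 DESeq size factor per library. The strand setting of the counting is not given in the sources used here. All value columns were used and mapped to samples by the library names in the labels. Every value (100%) was a whole multiple of 1 read to within 0.1, so the reads were recovered. The replicates of a strain were separate libraries, with a chi-square per degree of freedom of 77.6 or more.

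limma (version 3.58.1, R 4.3.3) was fitted to log2(scaled count + 1), with 1 term for the strain, over all 6 libraries together and with a variance trend. Every gene met the minimum of 10 summed scaled counts (lowest 14.4). The alternatives included edgeR (version 4.0.16, quasi-likelihood) and DESeq2 (version 1.42.0) on the recovered reads, and pseudocounts of 0.5 and 10. A minimum of 10 for the mean scaled count (292 genes fewer) and libraries rescaled to 1 total were also used. The others were only the 4 libraries compared, each library left out, and the replicate number as a block. Libraries of 1 replicate number carry the same letter in their labels. The difference of replicates 2 and 1 correlated between strains over genes (r = 0.547, 0.586 and 0.459), so the numbers were read as pairing the libraries. The fits were tested on simulated data.

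Windows of 50 bases were matched exactly to both strands of the RefSeq R64 genome. Identity came from global alignment of coding sequences. Values in every library are given for the TIR and DAN genes, for PAU genes with a mean scaled count of at least 50 and for members called with or without the block, and other members by range and count. For the related lists, genes that passed and up to 3 others of highest mean are named, and the other genes named were chosen after their values were seen. The members, the lists and the tests were chosen with earlier results of these data known. P-values and read counts cover no error of PCR copies, since no molecular identifiers were used.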

Additional observations from a re-analysis of the deposited data

Results flagged for a closer look

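TIR2 and PAU7 lay on opposite sides of WT in the 2 mutants, lower in both rrp6Δ libraries and higher in both Rrp6 exo- libraries. How many of all genes do so was not counted. The libraries did not overlap WT in 50.0% of all genes for rrp6Δ and 45.2% for Rrp6 exo-. For TIR2 the log2 difference of rrp6Δ minus Rrp6 exo- was -0.423, from 374 and 277 scaled counts in rrp6Δ and 412 and 453 in Rrp6 exo-. The test of that difference did not pass (limma adjusted p = 0.876, and 0.269 with the block). For PAU7 (YAR020C), the shortest listed PAU gene at 168 bases, the difference was -0.832, from 3 and 3 reads in rrp6Δ, 6 and 6 in Rrp6 exo-, and 4 and 4 in WT. It did not pass either (limma adjusted p = 0.876, and 0.49 with the block).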

How the results depend on the processing

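The log2 fold changes of the 8 members described in every library gave 24 values and 360 alternative values. Of these alternatives, 339 kept direction and stayed uncalled, 15 came to pass the threshold and 6 changed sign. Limma without the block called none of these members, so no call could be lost. The numbers of members called for rrp6Δ against WT and Rrp6 exo- against WT were 0 and 0 in limma, 3 and 2 in limma with the replicate block, 3 and 2 in edgeR with the replicate block, and 3 and 2 in DESeq2. They were 0 in all other settings that kept every library of the strains compared. The fits with a library left out had no block and were not run in DESeq2, so they do not test the calls made there. The calls on TIR genes thus rest on the block or on DESeq2, and the block changed no other call. The sign changes were all with 1 library left out. The log2 fold change of PAU12 in rrp6Δ ranged from -0.006 to 0.429, that of PAU17 from -0.412 to 0.104 in rrp6Δ and from -0.007 to 0.509 in Rrp6 exo-, and that of DAN1 in Rrp6 exo- from -0.827 to 0.42. The median over the members was 0.014 in rrp6Δ. It was -0.01 with a pseudocount of 10, -0.118 over the 12 members with a mean of at least 10, 0.146 after rescaling to the same total (which moved the median of all genes to 0.16), -0.038 in edgeR, -0.049 in edgeR with the replicate block, -0.06 in DESeq2, and from -0.205 (without WT replicate 1) to 0.019 with 1 library left out, so it has no stable sign. In Rrp6 exo- the median of 0.195 became 0.21 and 0.082 with pseudocounts of 0.5 and 10, 0.018 over the 12 members, 0.288 after rescaling (all genes 0.12), 0.152 in edgeR, 0.164 in edgeR with the replicate block, 0.134 in DESeq2, and 0.061 to 0.243 with 1 library left out. Without Rrp6 exo- replicate 2 it was 0.061. Between the mutants the median of -0.173 became -0.085 with a pseudocount of 10, -0.283 over the 12 members, and -0.286 to -0.106 with 1 library left out. The PAU genes had 1 to 74 reads per library.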
